A study of Mus musculus with 100 samples.

Results

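The genes described here are 10 transcriptional targets and feedback regulators of the ERK pathway, chosen by name: Spry2, Spry4, Spred1, Spred2, Dusp4, Dusp6, Etv4, Etv5, Egr1 and Ier3. All 10 were found among the 25965 genes of the expression table, and all 10 passed the filter on low values. The RNA-seq libraries number 18, with 3 biological replicates in each of 6 groups. Female MEFs are fibroblasts of a single female embryo from an i4F-BL6 mother and a CAST father. The mother carried a doxycycline-inducible cassette of Oct4, Sox2, Klf4 and c-Myc. A set of 4 iPSC lines was reprogrammed from MEFs of the same cross in medium with knockout serum replacement (KSR) and LIF, of which F KSR2 and F KSR4 are female, and M KSR3 and M KSR5 male. Each line was grown from 1 colony picked after 12 days of doxycycline and was kept without doxycycline until about day 50, and the cassette stays in the cells. TX 2i ESCs are 1 female line of embryonic stem cells (ESCs), also BL6 by CAST, kept in serum and LIF with 2i, an inhibitor of MEK and an inhibitor of GSK3. KSR medium holds neither inhibitor. The comparison of KSR-iPSCs with TX 2i ESCs therefore asks how these genes stand with and without a block of MEK. Medium, serum, origin of the cells and the single ESC line change together, however, and cannot be told apart. The male lines also differ from TX 2i ESCs in sex.

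Growth factors such as FGF4 activate receptor tyrosine kinases, and the signal passes through RAS, RAF and MEK to the kinase ERK. ERK switches on transcription factors, among them the ETS factors Etv4 and Etv5 and the zinc finger factor Egr1. It also switches on its own inhibitors. Sprouty proteins (Spry2, Spry4) and their relatives with an EVH1 domain (Spred1, Spred2) act on the pathway above and at RAF, and the phosphatases Dusp4 and Dusp6 remove the activating phosphates from ERK itself. In mouse pluripotent cells, FGF and ERK signalling prepares the exit from the naive state, which is why a MEK inhibitor is part of 2i medium.

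The values are log2 RPM, which relate the reads of a gene to the total of its library, with no correction for gene length. Libraries held 13183036 to 17921280 reads on genes, and 1 read stood at -4.29 to -3.89. In bulk samples like these, fewer cells of a type and less RNA per cell cannot be told apart. Groups were compared with limma over all genes tested, with a Benjamini-Hochberg adjusted p under 0.05 as the threshold. The group labels were checked with marker genes. The 10 pluripotency markers summed to 4114 to 6398 RPM in the KSR-iPSC libraries, 7115 to 8877 in TX 2i ESCs and 50.1 to 56.0 in MEFs, where Pou5f1, Zfp42, Tdgf1 and Dppa5a had no read. The 15 fibroblast markers summed to 0.112 to 0.312% of their MEF mean in 11 KSR-iPSC libraries, to 0.758% in M KSR5 replicate 3 and to 0.188 to 0.294% in TX 2i ESCs. Squared differences between replicates exceeded counting noise by a median factor of 2.89 to 60.4, most of all in F KSR4. The replicates of a group come from the same line or embryo. The p-values of the fit of all 18 libraries thus measure the spread between replicates and not that between independent lines. The fit between the sexes has no term for line, so its spread mixes both, and replicates of a line count there as independent.

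Of the 10 genes, 8 were higher in KSR-iPSCs than in TX 2i ESCs and none was lower at the threshold, where 11% of the 14632 genes tested were higher and 12.0% lower. The median of the log2 differences was 2.61 over the 10 genes and 0.00 over all genes tested. The genes that passed were all 4 Sprouty and Spred genes, both phosphatases, Etv4 and Egr1. Etv5 and Ier3 did not pass, but Etv5 passed as lower without F KSR4 replicate 1 (-0.66, limma adjusted p = 0.0033). In 5 of the 10 genes, namely Spry4, Dusp4, Dusp6, Etv4 and Egr1, every one of the 12 KSR-iPSC libraries lay above every TX 2i ESC library, which held for 3.94% of all genes tested. The plot of the levels by library shows both patterns.

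**Figure D1:**
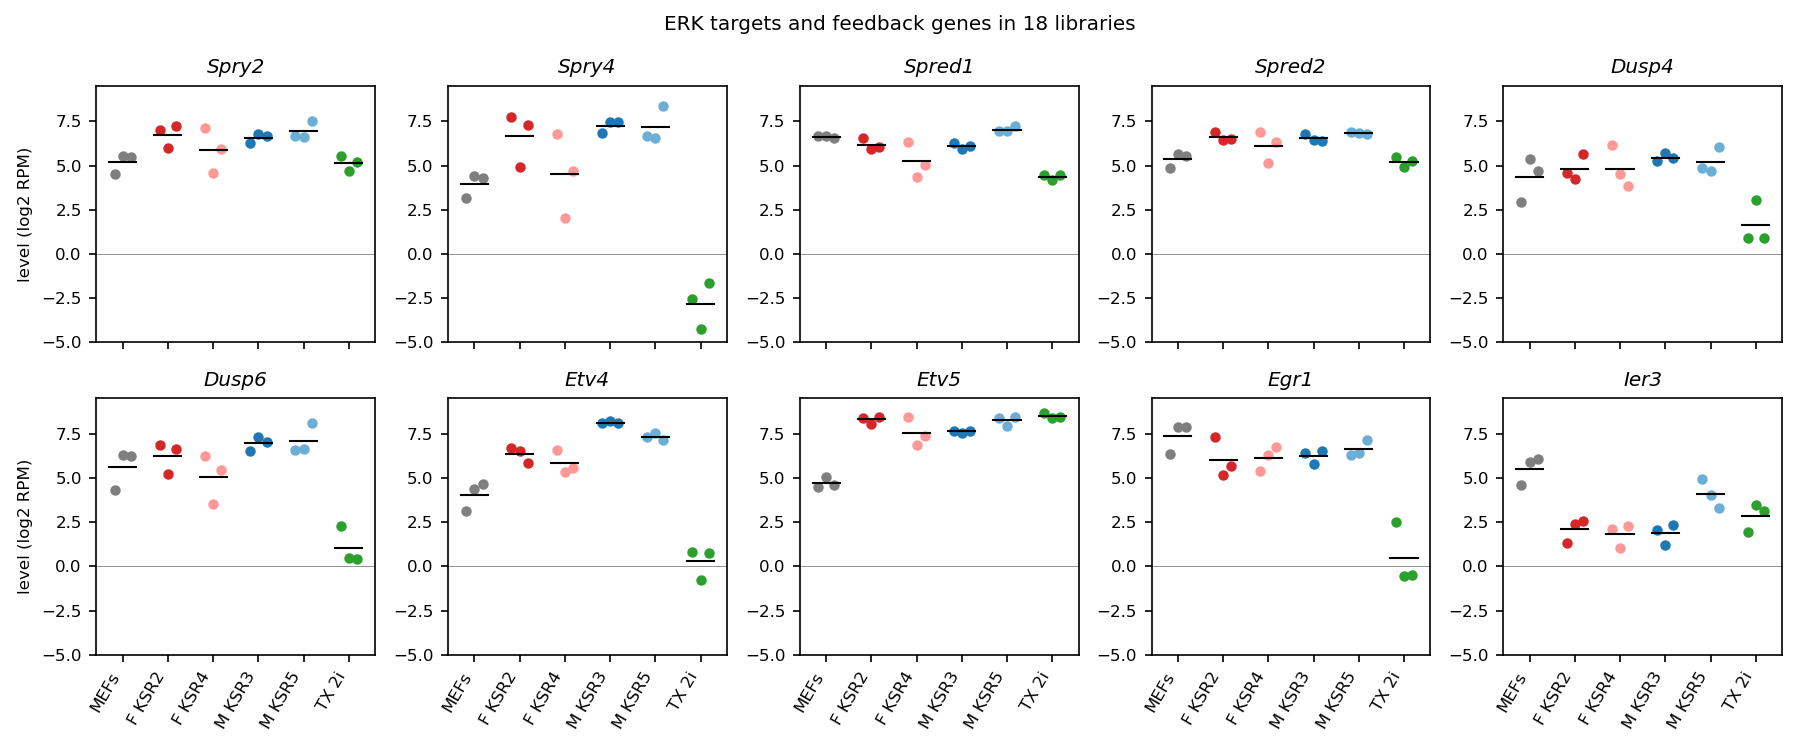
Level of each gene (log2 RPM, vertical axis) in each of the 18 libraries (points) by group (horizontal axis), with the group mean as a line. TX 2i ESC points lie below all KSR-iPSC points for Spry4, Dusp4, Dusp6, Etv4 and Egr1, and among the highest for Etv5.

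Spry4, on chromosome 18 from 38586268 to 38601268 (GRCm38, minus strand), had the largest difference of the 10 genes. Its 3 TX 2i ESC libraries stood at -2.57, -4.22 and -1.65, which are 3, 1 and 5 reads. The 12 KSR-iPSC libraries ranged from 2.05 to 8.37 with a median of 6.80, and the MEF libraries stood at 3.18, 4.42 and 4.27. Spry4 was thus close to the limit of detection in TX 2i ESCs and clearly read in all other libraries. The log2 difference between KSR-iPSCs and TX 2i ESCs was 9.22 (standard error 0.75, limma adjusted p = 4.2e-07). In RPM the ratio was 746, with a counting interval of 393 to 1630 (95%, exact), since the TX 2i ESC libraries held 9 reads in all. That interval covers counting error only and not the spread between replicates.

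Spry2, on chromosome 14 from 105891949 to 105896819 (minus strand), behaved differently from its relative. TX 2i ESC libraries read it at 5.57, 4.68 and 5.23, and the KSR-iPSC libraries ranged from 4.60 to 7.52 with a median of 6.68. In MEFs it stood at 4.51, 5.52 and 5.51. The KSR-iPSC and TX 2i ESC ranges overlapped through 1 library, F KSR4 replicate 2. Spry2 was 2.60-fold higher in KSR-iPSCs (log2 difference 1.38, standard error 0.39, limma adjusted p = 0.016). This call was lost without TX 2i ESC replicate 2 (1.14, limma adjusted p = 0.11) and without TX 2i ESC replicate 3 (1.41, limma adjusted p = 0.055), and in the female lines alone (1.16, limma adjusted p = 0.068).

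The Spred genes showed differences nearer in size to that of Spry2 than to that of Spry4. Spred1, on chromosome 2 from 117121374 to 117182279, was read at 4.44, 4.16 and 4.45 in TX 2i ESCs, at 4.36 to 7.21 (median 6.19) in KSR-iPSCs and at 6.66, 6.70 and 6.56 in MEFs. Its log2 difference from TX 2i ESCs was 1.79 (standard error 0.26, limma adjusted p = 0.00011). Spred2, on chromosome 11 from 19924375 to 20024026, stood at 5.50, 4.94 and 5.24 in TX 2i ESCs, at 5.16 to 6.92 (median 6.65) in KSR-iPSCs and at 4.89, 5.63 and 5.54 in MEFs. It was higher in KSR-iPSCs by 1.31 (standard error 0.25, limma adjusted p = 0.0012). For both Spred genes 11 of the 12 KSR-iPSC libraries lay above every TX 2i ESC library, and the exception was again F KSR4 replicate 2.

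Dusp6, the phosphatase that acts on ERK in the cytoplasm, lies on chromosome 10 from 99263231 to 99267488. The TX 2i ESC libraries stood at 2.27, 0.48 and 0.42, KSR-iPSCs at 3.55 to 8.11 with a median of 6.61, and MEFs at 4.35, 6.32 and 6.27. All 12 KSR-iPSC libraries lay above TX 2i ESCs, and the log2 difference came to 5.30 with a standard error of 0.55 (limma adjusted p = 4.8e-06), that is 39.3-fold. Dusp4, a phosphatase of the nucleus, lies on chromosome 8 from 34807297 to 34819894. It was read at 0.93, 3.08 and 0.93 in TX 2i ESCs, at 3.83 to 6.15 (median 5.06) in KSR-iPSCs and at 2.94, 5.40 and 4.68 in MEFs. The log2 difference of Dusp4 was 3.43 (standard error 0.54, limma adjusted p = 0.00023). TX 2i ESC replicate 2 was the lowest of its group for 7 of the 10 genes (36.7% of all genes tested), among them Spry4 and Etv4. It was the highest for Dusp4, however. TX 2i ESC replicate 1 was the highest for 6 of the 10 genes (24.7% of all genes tested). The order of the TX 2i ESC libraries was thus shared by most of these genes but not by all.

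The ETS factors Etv4 and Etv5 went apart. Etv4, on chromosome 11 from 101769742 to 101785371 (minus strand), stood at 0.84, -0.77 and 0.78 in TX 2i ESCs and at 3.11, 4.40 and 4.64 in MEFs. Among the KSR-iPSCs, F KSR2 read 6.69, 6.54 and 5.86 and F KSR4 read 6.58, 5.35 and 5.54. The male line M KSR3 read 8.12, 8.20 and 8.09, and M KSR5 read 7.30, 7.56 and 7.14. Every pluripotent library in KSR medium was thus above MEFs, and every TX 2i ESC library below them. RPM were 112 times higher in KSR-iPSCs than in TX 2i ESCs, where 70 reads were found in all (counting interval 88.6 to 144). Etv5, on chromosome 16 from 22381309 to 22439719 (minus strand), stood at 8.65, 8.38 and 8.46 in TX 2i ESCs, at 6.89 to 8.46 (median 8.00) in KSR-iPSCs and at 4.52, 5.05 and 4.63 in MEFs. No KSR-iPSC library lay above all TX 2i ESC libraries. The log2 difference of Etv5 was -0.55 (standard error 0.22, 95% interval -1.02 to -0.09, limma adjusted p = 0.083), so a rise of Etv5 in KSR-iPSCs like that of Etv4 lay outside the interval.

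Egr1, an immediate early gene on chromosome 18 from 34859823 to 34864984, stood at 2.53, -0.52 and -0.51 in TX 2i ESCs, at 5.15 to 7.32 (median 6.38) in KSR-iPSCs and at 6.37, 7.86 and 7.86 in MEFs. Its log2 difference between KSR-iPSCs and TX 2i ESCs was 5.77 (standard error 0.55, limma adjusted p = 1.8e-06). TX 2i ESC replicate 1 read Egr1 well above the other two libraries of its group, and it was also the highest of them for Dusp6. Ier3, an early response gene that also restrains the dephosphorylation of ERK, lies on chromosome 17 from 35821684 to 35822923. It was read at 1.97, 3.48 and 3.12 in TX 2i ESCs, at 1.07 to 4.94 (median 2.34) in KSR-iPSCs and at 4.59, 5.90 and 6.06 in MEFs. The ranges of KSR-iPSCs and TX 2i ESCs overlapped widely, and the log2 difference of Ier3 was -0.39 (standard error 0.43, 95% interval -1.29 to 0.51, limma adjusted p = 0.57).

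Compared between genes per kilobase of exon, the order of levels changed with the group. In KSR-iPSCs Etv5 had the highest mean level (5.91, log2 RPM per kilobase), followed by Spry2 (5.48) and Etv4 (5.28), and Ier3 had the lowest (2.29). In TX 2i ESCs Etv5 was again the highest (6.46), followed by Spry2 (4.10) and Spred2 (3.02), and Spry4 was the lowest (-5.07). In MEFs the highest per kilobase were Ier3 (5.34) and Egr1 (5.20), and the lowest was Spry4 (1.71).

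Promoter sequences of the RefSeq table were examined for letters that ETS factors and AP-1 are known to bind, since ETS factors and AP-1 act at the end of the ERK pathway. For 6 of the genes 7 windows were used (Spry2, Spred1, Spred2, Dusp6, Etv5 with 2 start sites, and Ier3). Each ran from 250 bases before to 50 bases after a start site. Dusp4 and Etv4 were not matched, and Spry4 and Egr1 were not used here. CCGGAA, on either strand, was found in the Spry2 window, and in 14.9% of all 32851 windows. AGGAAG, on either strand, was found in Spred2, Dusp6, Ier3 and 1 window of Etv5, and in 35.4% of all windows. TGANTCA was found in none of the 7 windows and in 7.81% of all. The letters of both ETS motifs share GGAA and can overlap. The AGGAAG letters thus occurred in genes that were higher in KSR-iPSCs (Spred2, Dusp6) and in genes that were not (Etv5, Ier3), and a match is a description of letters only. The bases upstream of Dusp6, Spred2 and Ier3 are shown to compare 2 genes that passed with 1 that did not. They run 5′ to 3′ on the plus strand of GRCm38.p6 up to the base before the gene's start in the expression table, with AGGAAG or its reverse complement in capitals (the other match of Spred2 lies beyond that base), at chr10:99262981-99263230, chr11:19924192-19924374 and chr17:35821463-35821683.
Dusp6: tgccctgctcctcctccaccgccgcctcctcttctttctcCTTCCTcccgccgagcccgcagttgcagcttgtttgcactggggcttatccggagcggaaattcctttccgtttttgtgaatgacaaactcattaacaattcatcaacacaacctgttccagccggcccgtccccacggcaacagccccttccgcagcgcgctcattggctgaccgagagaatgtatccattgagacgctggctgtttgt
Spred2: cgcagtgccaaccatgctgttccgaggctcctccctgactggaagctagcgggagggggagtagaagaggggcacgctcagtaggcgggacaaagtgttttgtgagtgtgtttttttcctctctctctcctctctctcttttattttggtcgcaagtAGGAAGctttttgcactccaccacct
Ier3: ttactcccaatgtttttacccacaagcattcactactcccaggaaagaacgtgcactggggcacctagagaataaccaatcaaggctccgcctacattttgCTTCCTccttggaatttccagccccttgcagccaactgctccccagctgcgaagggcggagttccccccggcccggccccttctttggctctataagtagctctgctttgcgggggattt

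Each KSR-iPSC line was also compared with TX 2i ESCs by itself. The 4 comparisons share the same 3 TX 2i ESC libraries, so they do not repeat each other independently. In F KSR2, 8 of the 10 genes were higher and none lower, where 6.14% of all genes tested were higher and 6.63% lower. F KSR4 had 5 higher and 1 lower (5.85% and 9.57% of all genes). In M KSR3, 8 were higher and 1 lower (12.6% and 10.6%), and in M KSR5 8 were higher and none lower (9.38% and 8.84%). Spry4, Dusp4, Dusp6, Etv4 and Egr1 passed in all 4 lines. Their log2 differences ranged over the lines from 7.33 to 10.06 for Spry4, from 3.17 to 3.81 for Dusp4, from 4.03 to 6.06 for Dusp6, from 5.54 to 7.85 for Etv4 and from 5.55 to 6.12 for Egr1. Spry2, Spred1 and Spred2 did not pass in F KSR4, at 0.73, 0.90 and 0.90, and they passed there without F KSR4 replicate 2, at 1.37, 1.35 and 1.39 (limma adjusted p = 0.036, 0.0036 and 0.0010). Etv5 was the gene that was lower in F KSR4 (-0.93) and M KSR3 (-0.86), with a limma adjusted p of 0.033 and 0.035. Both Etv5 calls rest on few libraries. In F KSR4 the call was lost without F KSR4 replicate 2 (-0.59, limma adjusted p = 0.12) or 3 (-0.82, limma adjusted p = 0.089) or any 1 of the TX 2i ESC libraries (-0.99 to -0.85), and in M KSR3 without any 1 library of either group (-0.92 to -0.78). The Spry2 calls were also lost without single libraries of the groups compared, in F KSR2 (1.35 to 1.80), M KSR3 (1.18 to 1.62) and M KSR5 (1.49 and 1.54). Ier3 stood at 1.23 in M KSR5 and at -1.04 to -0.77 in the other three lines, and passed in none of them.

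**Figure D2:**
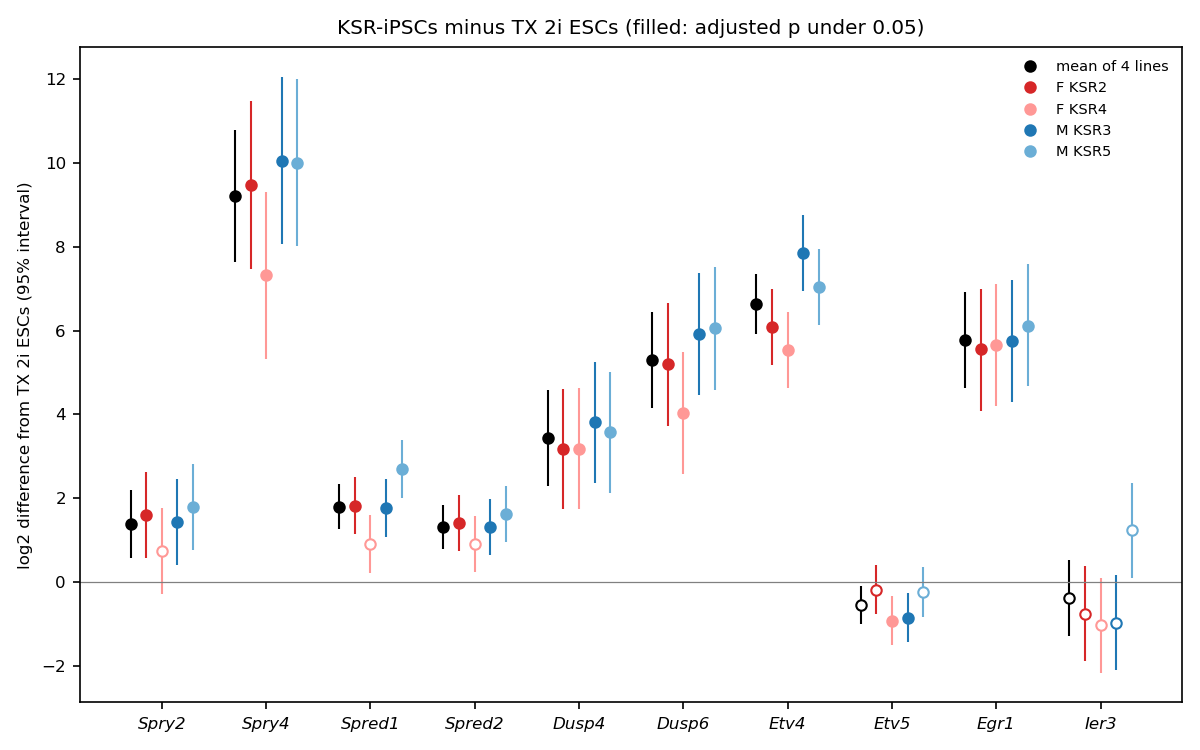
Log2 difference from TX 2i ESCs (vertical axis, with 95% interval) of each gene (horizontal axis) for KSR-iPSCs (mean of 4 lines, black) and for each line (colours), filled where the limma adjusted p was under 0.05. Spry4, Dusp4, Dusp6, Etv4 and Egr1 are filled in all 4 lines, and Etv5 lies at or below 0.

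The difference between lines was tested over the 4 lines. A moderated F test (limma) called 3 of the 10 genes, Spred1, Etv4 and Ier3, where 14.1% of all genes tested were called. Spred1 was highest in M KSR5 (6.95, 6.96 and 7.21) and lowest in F KSR4 (6.34, 4.36 and 5.06), while F KSR2 read 6.57, 5.91 and 6.03 and M KSR3 read 6.28, 5.94 and 6.10 (limma adjusted p = 0.0095). The M KSR5 libraries did not overlap with those of any other group for Spred1. Etv4 had its line means in the order M KSR3 (8.14), M KSR5 (7.33), F KSR2 (6.36) and F KSR4 (5.82), and the ranges of neighbours overlapped between the female lines and nowhere else (limma adjusted p = 0.0058). Ier3 stood at 4.94, 4.02 and 3.32 in M KSR5 and at 1.07 to 2.59 in the other 9 KSR-iPSC libraries (limma adjusted p = 0.018). The Ier3 call was lost without M KSR5 replicate 1 (limma adjusted p = 0.11) or replicate 2 (limma adjusted p = 0.061). M KSR5 replicate 3, which held the most fibroblast marker reads, had the lowest Ier3 level of its line. The part of fibroblast markers in the Ier3 levels was not tested. The count of 3 genes rose to 8 without F KSR4 replicate 1, the library of that line in which most of the genes were highest. Over all genes tested the count was 2070, and it ranged from 995 to 3947 when single libraries were left out.

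Of the 10 genes, 1 was lower and none higher in the 6 female than in the 6 male KSR-iPSC libraries, where 1.28% of 13609 genes tested were lower and 1.59% higher. This gene was Etv4, at 5.35 to 6.69 in the female libraries and 7.14 to 8.20 in the male ones (log2 difference -1.64, standard error 0.26, limma adjusted p = 0.0035). The median difference was -0.69 over the 10 genes and -0.11 over all genes tested. Dusp6 (-1.37, limma adjusted p = 0.11), Spred1 (-0.86, limma adjusted p = 0.18) and Spry4 (-1.64, limma adjusted p = 0.24) did not pass, and Etv5 stood at -0.01. The direction of Etv5 turned to 0.07 when libraries were centred on their median and to 0.01 with voom. The call of Etv4 was lost with 1 mean per line (-1.64, limma adjusted p = 0.21), when 2 female lines stand against 2 male lines, and also without M KSR3 (-1.24, limma adjusted p = 0.14). Sex, line and donor embryo cannot be told apart here.

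Several of these genes lie on chromosomes with unequal dosage, so their levels were set beside those of their neighbours. In M KSR3, the 164 genes within 10 Mb of Etv4 stood 0.56 ± 0.02 (SD, n = 3) above the mean of the other lines on the log2 scale, relative to all autosomal genes. Their maternal share of allelic reads was 67.1% ± 0.430 (SD, n = 3) in M KSR3, against 49.7 to 50.6% in the other pluripotent groups. For Etv4 itself, 78.4% ± 0.832 (SD, n = 3) of allelic reads were maternal in M KSR3. The share was 64.8% ± 1.30 for F KSR2, 66.6% ± 6.78 for F KSR4 and 63.8% ± 2.27 for M KSR5. On the maternal allele Etv4 had 28.9 ± 0.820 RPM (SD, n = 3) in M KSR3, against 12.9 ± 2.16 in M KSR5. The paternal allele had 7.97 ± 0.508 and 7.24 ± 0.609 RPM in these male lines. Both alleles were lower in the female lines, with 6.85 ± 2.40 maternal and 3.69 ± 1.11 paternal RPM in F KSR2 and 4.64 ± 2.64 and 2.13 ± 0.789 in F KSR4. M KSR3 thus stood above M KSR5 mainly on the maternal allele and above the female lines on both. The neighbours of Etv4 stood at -0.20 to -0.15 in the other pluripotent groups, with -0.17 ± 0.02 (SD, n = 3) in M KSR5. The reference of each of these groups includes M KSR3, which lowers these values. Etv4 in M KSR5 stood 7.05 above TX 2i ESCs on the log2 scale. The part of dosage in the Etv4 levels was not tested.

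Etv5 lay in a region of the opposite kind. In TX 2i ESCs the 106 genes within 10 Mb of Etv5 stood 0.57 ± 0.02 (SD, n = 3) above the KSR-iPSC lines, with a maternal share of 34.3% ± 0.282, against 50.9 to 51.7% in the lines. The maternal share of Etv5 was 28.6% ± 1.30 in TX 2i ESCs and 49.7 to 53.6% in the KSR-iPSC lines. Paternal reads of Etv5 came to 102 ± 9.77 RPM in TX 2i ESCs and to 36.0 to 61.3 in the lines, and maternal reads to 41.1 ± 6.44 and 35.8 to 61.9. The maternal level of Etv5 in TX 2i ESCs thus lay inside the range of the line means, and the paternal level above it. The part of dosage in the Etv5 levels was not tested.

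Dusp4 lay on chromosome 8, where dosage also differed. The 56 genes within 10 Mb of Dusp4 stood at 0.28 ± 0.03 in TX 2i ESCs (SD, n = 3). Among the lines they stood at 0.20 ± 0.12 in F KSR4 and 0.21 ± 0.02 in M KSR3, against -0.29 ± 0.09 in F KSR2 and -0.13 ± 0.08 in M KSR5. Each line was set against the mean of the other lines, and TX 2i ESCs against that of all 4 lines. The references of F KSR2 and M KSR5 thus include the higher lines F KSR4 and M KSR3. Dusp4 itself was lowest in TX 2i ESCs, and the part of dosage in its levels was not tested. For Spry2, Spry4, Spred1, Spred2, Dusp6, Egr1 and Ier3 the neighbours within 10 Mb stood between -0.12 and 0.10 in every pluripotent group. Dusp6 had a maternal share of 35.8 to 45.7% in the 4 lines, below the 54.8 to 58.0% of its neighbours, and Spry2 had 65.3 to 68.9% against 49.1 to 50.9%. Both shares were also found to that side in MEFs, with 46.9% ± 2.83 for Dusp6 and 60.7% ± 5.80 for Spry2 (SD, n = 3). In TX 2i ESCs 5 or more allelic reads were found in 3 libraries for Spry2, Spred1, Spred2, Dusp4 and Etv5, in 1 library for Dusp6, Etv4 and Egr1, and in none for Spry4. Ier3 reached 5 allelic reads in no library.

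**Figure D3:**
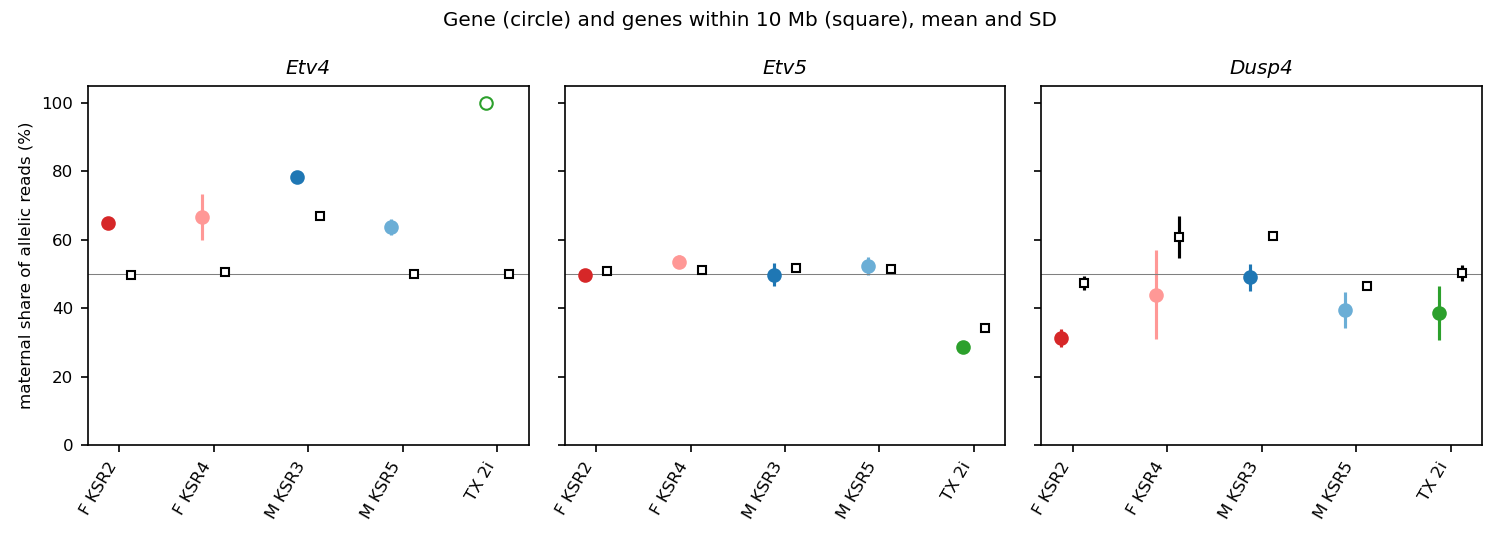
Maternal share of allelic reads (%, vertical axis) of Etv4, Etv5 and Dusp4 (circles) and of the genes within 10 Mb (squares) in each pluripotent group (horizontal axis), as mean and SD of 3 libraries. The open circle is a single library with 8 allelic reads. Etv4 rises to 78.4% in M KSR3 and Etv5 falls to 28.6% in TX 2i ESCs, each beside neighbours that move the same way.

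The fibroblasts gave a second reference, from cells that are not pluripotent. Between KSR-iPSCs and female MEFs, 5 of the 10 genes were higher and 1 lower, where 41.8% of all genes tested were higher and 32.5% lower. Higher in KSR-iPSCs were Etv5 (3.21, limma adjusted p = 6.6e-10), Etv4 (2.86), Spry4 (2.44), Spry2 (1.36) and Spred2 (1.18), and lower was Ier3 (-3.05, limma adjusted p = 5.0e-06). Spred1 (-0.50), Dusp4 (0.74), Dusp6 (0.70) and Egr1 (-1.10) did not pass. Spred1 passed with median centring (-0.61, limma adjusted p = 0.028) and without F KSR4 replicate 1 (-0.63, limma adjusted p = 0.0017). Egr1 passed without MEF replicate 1, at -1.59 (limma adjusted p = 0.028), and with voom, at -1.05 (limma adjusted p = 0.021). Of 10 genes, 7 were lower and 1 higher in TX 2i ESCs than in MEFs, where 29.0% of all genes tested were lower and 37.5% higher. Lower were Egr1 (-6.86), Spry4 (-6.77), Dusp6 (-4.59), Etv4 (-3.76), Dusp4 (-2.69), Ier3 (-2.66) and Spred1 (-2.29), with a limma adjusted p of at most 0.0022. Etv5 was higher by 3.77, and Spry2 (-0.02) and Spred2 (-0.13) did not pass. Ier3 was lower than in MEFs and Etv5 higher than in MEFs in both kinds of pluripotent cells. Both comparisons use the same MEF libraries.

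**Figure D4:**
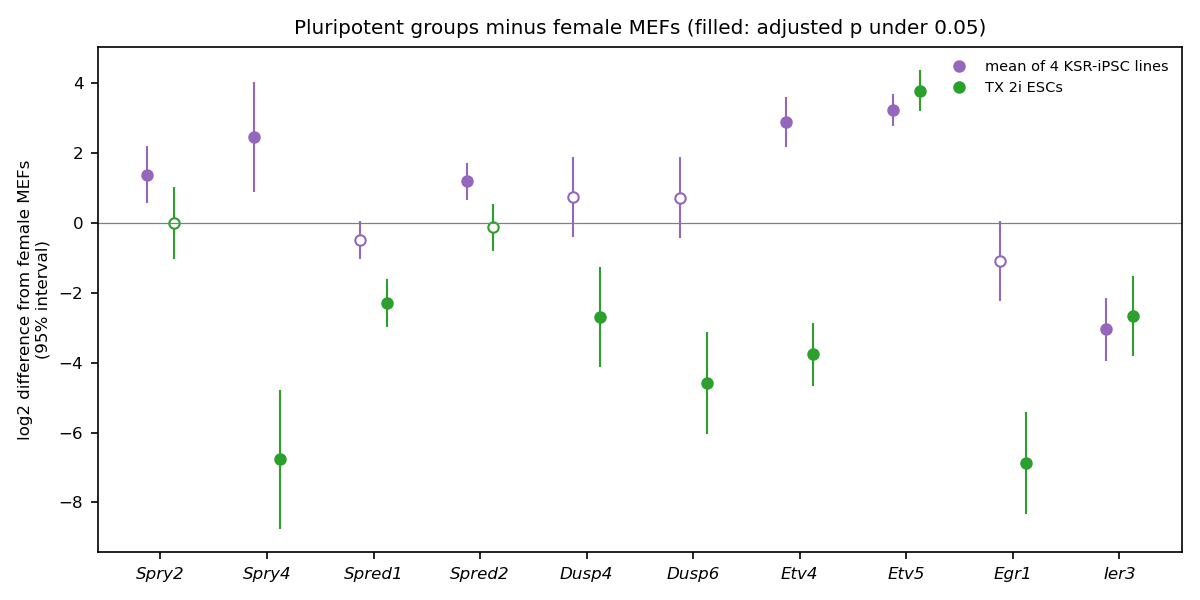
Log2 difference from female MEFs (vertical axis, with 95% interval) of each gene (horizontal axis) for KSR-iPSCs (mean of 4 lines) and for TX 2i ESCs, filled where the limma adjusted p was under 0.05. Etv5 lies above 0 and Ier3 below 0 in both, while Spry4 and Etv4 lie above 0 in KSR-iPSCs and below 0 in TX 2i ESCs.

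In some libraries most of the 10 genes lay to the same side of the other replicates. In MEF replicate 1, 9 of the 10 genes were the lowest of the 3 replicates, where 31.2% of all genes tested were. F KSR2 replicate 2 had 8 of 10 (30.4% of all genes), and F KSR4 replicate 2 had 8 of 10 (45.3%). In F KSR4 replicate 1, 8 of 10 were the highest (37.0%). Spry4 was read at 6.77, 2.05 and 4.71 in F KSR4 and at 7.77, 4.90 and 7.29 in F KSR2. For Dusp6 the levels were 6.26, 3.55 and 5.43 in F KSR4 and 6.85, 5.23 and 6.65 in F KSR2. The deviation of a library from its other 2 replicates was largest for Spry4 in F KSR4 replicates 2 (-3.68) and 1 (3.39), followed by Egr1 in TX 2i ESC replicate 1 (3.05). Egr1 ran the other way in F KSR4, at 5.39, 6.32 and 6.73. In F KSR4 replicates 1, 2 and 3 the 6 primed epiblast markers summed to 486.7, 99.1 and 273.8 RPM, the 6 mesoderm markers to 57, 8.85 and 28.8 and the 10 pluripotency markers to 4557, 4792 and 5425. The primed markers ran the other way in F KSR2, at 381.7, 476.4 and 324.7 RPM with the highest sum in replicate 2, and in M KSR5, at 575, 684.6 and 438.3 with the lowest sum in replicate 3, where 7 of the 10 genes were the highest (41.4% of all genes). The part of these markers in the levels was not tested. M KSR3 had the closest replicates, with Etv4 at 8.09 to 8.20, although its 8 primitive endoderm markers summed to 433.9 to 457.0 RPM against 50.9 to 187.5 in the other lines.

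**Figure D5:**
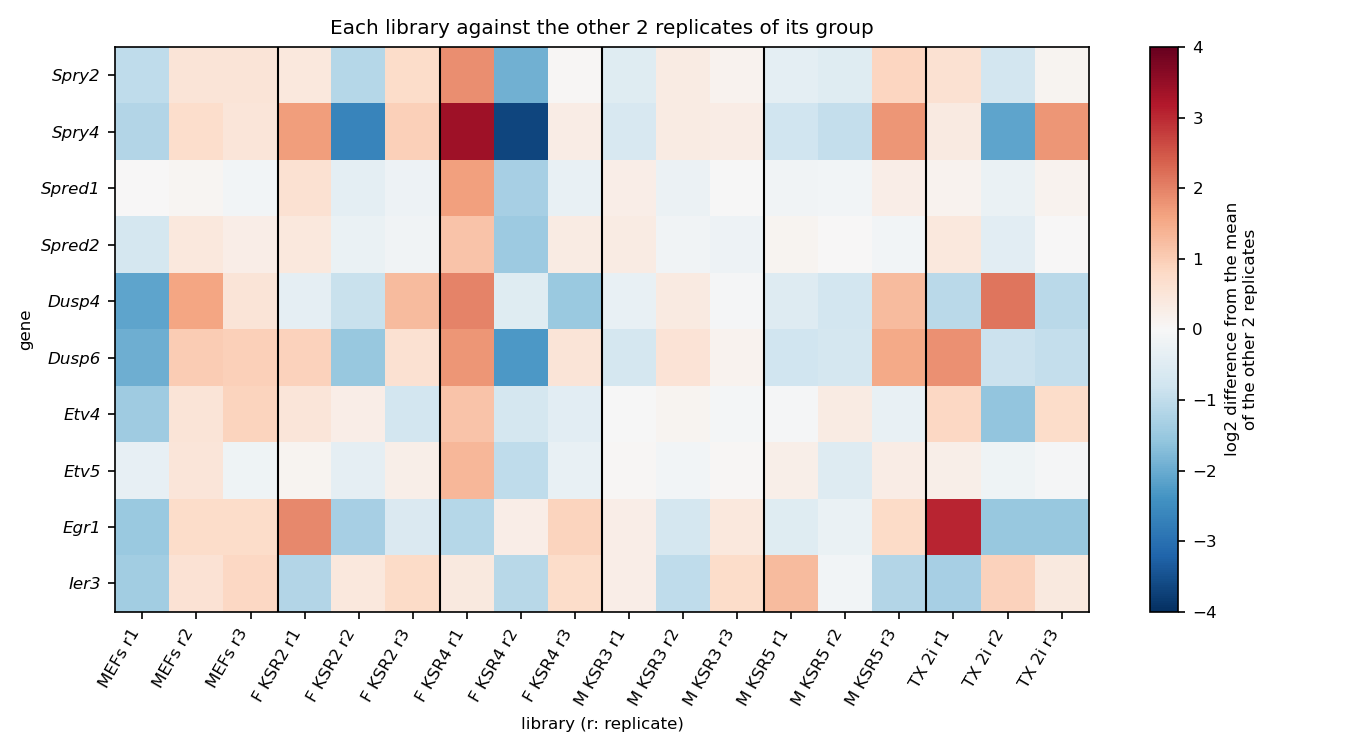
Log2 difference of each library (horizontal axis) from the mean of the other 2 replicates of its group, by gene (vertical axis), in colour from blue (lower) to red (higher). Most genes are blue in MEF replicate 1 and F KSR4 replicate 2 and red in F KSR4 replicate 1, with the deepest colours for Spry4 in F KSR4.

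Other genes of the pathway were read from lists of feedback inhibitors, ERK-induced genes, cascade components and FGF ligands and receptors, whose counts stand beside 11% higher and 12.0% lower over all genes tested. Of 12 further feedback genes, 2 were higher and 3 lower in KSR-iPSCs than in TX 2i ESCs, with a median log2 difference of 0.42. Higher were Spred3 (1.30), which relates to Spred1, and Erf (0.80), an ETS repressor that ERK moves out of the nucleus. Lower were the phosphatases Dusp1 (-0.84) and Dusp7 (limma adjusted p = 0.0023) and the EGF receptor inhibitor Errfi1 (-1.13). None of them passed in every line by itself. Spred3 passed only in M KSR5 (2.31), Dusp1 only in M KSR3 (-1.83) and Erf only in the male lines. Dusp7 and Errfi1 passed in F KSR2 and M KSR3. Dusp9, an X-linked phosphatase of ERK that is abundant in naive cells, stood at 8.36 ± 0.14 in TX 2i ESCs. Its group means in the lines were 7.37 to 8.84, and it did not pass. By line it passed in M KSR3 only, as lower (-0.98, limma adjusted p = 0.016). Between female and male lines its difference of 0.89 did not pass (limma adjusted p = 0.051). These counts of feedback genes are near those shares.

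Among 21 further ERK-induced genes, 10 were higher and 1 lower in KSR-iPSCs, where the shares over all genes were 11% and 12.0%, and the median log2 difference was 0.79. The largest differences were those of Fosb (4.45, limma adjusted p = 0.00069), Egr2 (2.97, limma adjusted p = 0.023), Etv1 (2.97, limma adjusted p = 0.00044) and Fos (2.68, limma adjusted p = 0.0029). Fos and Fosb encode AP-1 subunits, and Etv1 is the third ETS factor of the family of Etv4 and Etv5. Fosb had at most 9 reads and Egr2 at most 5 in a TX 2i ESC library, so their fitted differences depend on the value given to a gene without reads. Etv1 stood at 1.41 ± 1.64 in TX 2i ESCs, at 3.81 to 4.68 as means of the lines and at 1.89 ± 0.38 in MEFs (SD, n = 3). Fosl1, Junb, Mcl1, Plaur, Myc and Elk4 were the others that were higher. Elk1, an X-linked ETS factor, was lower (-0.82, limma adjusted p = 0.00028). Myc is also part of the reprogramming cassette of the KSR-iPSC lines, whose reads cannot be told apart from those of the gene. Fos, Fosb and Etv1 passed in each of the 4 lines by itself.

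Of 19 cascade genes tested, 1 was higher and 4 lower in KSR-iPSCs than in TX 2i ESCs (11% and 12.0% of all genes), with a median log2 difference of -0.06. Nras was the one that was higher (0.68, limma adjusted p = 0.00047), and among the lower were Map2k1, which encodes MEK1 (-0.46), and the kinases Rps6ka1 (-0.35) and Rps6ka3 (-0.89). These differences were below 1 on the log2 scale, against 1.31 to 9.22 for the 8 targets that passed. Rps6ka3 is X-linked, and its mean level was 6.51 in the female TX 2i ESCs. It was 6.25 in F KSR2 and 5.84 in F KSR4, against 5.12 in M KSR3 and 5.24 in M KSR5. Of 8 FGF ligands and receptors, Fgf5 (4.15) and Fgfr2 (1.21) were higher and Fgf4 (-0.57) and Fgfr1 (-0.64) lower (11% and 12.0% of all genes). Fgf4, the ligand that drives ERK in these cells, stood at 8.42 ± 0.22 in TX 2i ESCs and at group means of 7.38 to 8.17 in the lines. Fgf5 had 1 to 3 reads in each TX 2i ESC library, and its reads ranged from 1 to 198 among the replicates of F KSR4. Between the sexes, 3 genes of the lists passed and were higher in the female lines, Elk1 (0.71), Araf (0.78) and Rps6ka3 (0.87), all X-linked, where 1.59% of all genes tested were higher and 1.28% lower. With line means, 4 genes of the whole table passed in that comparison. Spry3 and Hras were not matched in the table.

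The 5 other genes with the pattern most like the mean of the 10 genes over the 18 libraries, each scaled to its own mean and SD, were Slc39a14 (r = 0.94), Enc1 (0.93), Taf13 (0.91), Rarg (0.89) and Nras (0.89). These libraries share lines and medium, and r is a description over 18 libraries. Slc39a14, a zinc transporter, had at most 2.80 in TX 2i ESCs and at least 4.40 in KSR-iPSCs. Each of the 10 genes is itself part of the mean, so its r cannot be set beside those of the 5 other genes. Within the 10 genes, r with the mean was 0.96 for Spry4 and Dusp6, 0.91 for Etv4 and 0.88 for Spred2. It was 0.85 for Spry2, Spred1 and Dusp4 and 0.76 for Egr1. It was 0.09 for Etv5 and 0.04 for Ier3.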

How the data were processed

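RNA-seq values of 18 libraries were used, and the methylation samples of the series were not used here. Strand-specific reads had been trimmed (Trim Galore 0.6.1), aligned to GRCm38 (HISAT2 2.1.0) and counted per gene in SeqMonk by the authors, who deposited log2 RPM, with 4 columns per library (all reads, reads without an informative SNP, and reads of genome 1 and genome 2). Genes without a read carry what 0.9 read would give. Whole reads were recovered from the log2 values, and 99.96 to 100% came out whole with a tolerance of 0.05 read. Genome 1 was taken as BL6, the maternal genome, and genome 2 as CAST, the paternal one. The labels used here do not name them, and this was inferred from the male lines, where 99.59 to 99.87% of X-linked allelic reads were of genome 1.

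Groups were compared with limma 3.58.1 in R 4.3.3 on the log2 scale as deposited, letting the prior variance follow the mean level. Genes entered a fit if 3 or more of its libraries had a value above 0. A fit of all 18 libraries had 1 mean per group, and the female and male lines were compared in the 12 KSR-iPSC libraries, 6 against 6. Tests are two-sided. Simulated data, in which 200 genes were changed, were used to test the fits. Alternatives were log2(RPM + 1), no filter, a stricter filter (above 1), median centring, voom on the recovered reads, the groups compared alone, line means, a replicate block, and leaving out each library. Leaving out line M KSR3 between the sexes was added after the data were seen. A maternal share needed at least 5 allelic reads in a library. Neighbours are genes with a log2 value above 2 in all 15 pluripotent libraries. The remaining steps used Python 3.11.15 with pandas 2.3.3 and scipy 1.17.1.

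The 10 genes and the gene lists were chosen with earlier results of these data known. The text names all 10 genes, the called genes of the lists with examples by size, and the 5 genes most like their mean, except 1 called gene of the lists that is counted but not reported here. The replicate numbers were checked for pairing by correlating, over genes, the deviations of libraries from their group means. Same-numbered libraries of different groups correlated at -0.20 to 0.38 (median 0.04), above 0.1 in 12 of 45 pairs. Libraries with different numbers correlated at -0.43 to 0.34 (median -0.01), above 0.1 in 12 of 90 pairs. The numbers were not taken as pairs in the main fits, and a replicate block was fitted as an alternative.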

Additional observations from a re-analysis of the deposited data

Results flagged for a closer look

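The difference from TX 2i ESCs was not the same in the 4 KSR-iPSC lines for 3 of the 10 genes, by the moderated F test of limma over the lines: Spred1 (adjusted p = 0.0095), Etv4 (adjusted p = 0.00577) and Ier3 (adjusted p = 0.018). For Etv4 the highest line was M KSR3, whose neighbouring genes also stood higher. Among the 6 female KSR-iPSC libraries, Spred2 in F KSR4 replicate 2, at 5.16, lay apart from the other five, with a gap to the nearest of 0.678 of the whole range, above Dixon's 95% critical value for 6 samples. This was 1 of 20 groups of 6 examined, and chance gives about 1 in 20.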

How the results depend on the processing

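The log2 difference of single genes kept its direction and its side of the threshold in most refits, and the 5 genes Spry4, Dusp4, Dusp6, Etv4 and Egr1 passed for KSR-iPSCs against TX 2i ESCs in each of the 28 alternatives run there. With 1 mean per line, where TX 2i ESCs are a single value assumed to vary like the lines, these 5 of 10 genes remained past the threshold (69 genes in all), and Spry2, Spred1 and Spred2 did not. Between the sexes 0 of the 10 genes passed in limma with line means (4 of all genes, and 4 of the 10 genes at an unadjusted p under 0.05) and 0 without line M KSR3 (27 of all genes). With line as a random effect 138 genes passed. With only the groups compared, 485 genes passed for F KSR4 and 5350 for M KSR3, against 2256 and 3387; fewer libraries then set the spread.

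Leaving out single libraries moved the counts of all genes to 2125 to 4317 for KSR-iPSCs against TX 2i ESCs, 1153 to 2645 for F KSR2, 1372 to 3032 for F KSR4, 2198 to 4284 for M KSR3, 1756 to 3396 for M KSR5, 187 to 521 between the sexes and 995 to 3947 among the lines. The counts of the 10 genes moved to 2 to 8 among the lines, with 8 without F KSR4 replicate 1, and to 7 to 9 for KSR-iPSCs against TX 2i ESCs. Reversed directions were found only for differences near 0 that did not pass. Without single libraries, Spry2 between TX 2i ESCs and MEFs ranged from -0.35 to 0.22, with 0.15 without MEF replicate 2 or 3, and Spred2 ranged from -0.36 to 0.02, with 0.01 without MEF replicate 2. Etv5 between the sexes ranged from -0.11 to 0.20 and turned to 0.07 with median centring and to 0.01 with voom. In F KSR4, Spry4 had a limma adjusted p of 0.077 with voom, and Spred1 and Spred2 passed with median centring (both 1.06). Without a filter on low values Spry2 did not pass in F KSR2 and M KSR3, nor Etv5 in F KSR4 and M KSR3. A replicate block gave 3546 genes and 8 of the 10 for KSR-iPSCs against TX 2i ESCs, and it changed 1 call of the 10 genes, Spred1 in F KSR4 (adjusted p = 0.042). Of 18 libraries 9 correlated best with their own number. The low reads of Spry4, Etv4, Dusp6 and Egr1 in TX 2i ESCs limit their allelic shares there. The cause of these changes was not tested.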
